A study of Mus musculus with 6 samples.

Results

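The DNA methylation machinery was followed through the genes that write, copy and erase methyl groups on cytosine: Dnmt1, Uhrf1, Uhrf2 and Hells for maintenance, Dnmt3a and Dnmt3b for new methylation, and Tet1, Tet2, Tet3 and Tdg for removal. The 10 genes were chosen by symbol from a gene table of 25239 rows, and all 10 were found. RNA depleted of ribosomal RNA was sequenced from mouse primary pulmonary fibroblasts, in 3 libraries labelled quiescent and 3 labelled Nutlin 3a-induced senescent. Nutlin 3a blocks the binding of Mdm2 to p53. All cultures grew with 10% serum at 5% oxygen. The induction is described as RO3306, a Cdk1 inhibitor, for 16 hours, Nutlin 3a for 48 hours, and then 100 nM of the Plk1 inhibitor BI-2536 against cells that still divide, 12 days in all. The quiescent samples carry that description as well, and the sources used here do not give the way in which quiescence was reached. Whether replicates were different cultures, animals or neither is not in the labels. The p-values therefore cover only the spread among these libraries, which may be technical.

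In mammals most methylated cytosines lie in CpG pairs. At each round of replication the new strand lacks the mark: Uhrf1 binds the resulting hemimethylated CpG and marks histone H3 with ubiquitin, and Dnmt1 is drawn to the site and restores the methyl group. Dnmt3a and Dnmt3b add methylation at sites that had none. Tet enzymes oxidise methylcytosine in steps that need iron and 2-oxoglutarate, and Tdg cuts out the most oxidised bases so that base excision repair can put an unmodified cytosine in their place. A cell that stops dividing no longer needs replication-coupled maintenance, and loss of methylation at repeats has been described in senescent fibroblasts.

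A library held 93736593 to 109706025 gene counts, and 18219831 to 21386546 of them remained when Rn45s, Lars2 and Mir6236, which take up most ribosomal reads, were set aside. Levels are CPM, the count relative to the TMM-adjusted total with those rows included, so that 1 count was worth 0.00843 to 0.0112 CPM. Senescent replicate 3 lay farthest from the other libraries of its group (root mean square difference 0.315 on the log2 scale, against 0.193 to 0.274 for the other 5 libraries). All 12 fibroblast markers passed the filter on low counts, with a summed level of 4902 to 5037 CPM in quiescent and 4123 to 4562 CPM in senescent ones; 4 were higher and 6 lower, among them Thy1 (log2 fold change 2.72), Col3a1 (-1.95), Pdgfra (-1.45) and Pdgfrb (-1.01). Macrophage and leukocyte markers summed to 3.92 to 4.23 CPM in quiescent and 10.8 to 14.2 CPM in senescent libraries, and 4 of their 11 genes could be tested and were higher. Those 4 were Csf1r (log2 fold change 2.56), Lyz2 (1.69), Cd14 (1.58) and Cd68 (0.81). Among the genes too low to test, the pan-leukocyte gene Ptprc had 1, 0 and 2 counts in quiescent and 9, 2 and 7 in senescent libraries. The T cell gene Cd3e had 0 in all 6. Smooth muscle and pericyte markers summed to 37.9 to 42.7 CPM and 93.5 to 146 CPM (6 of 9 tested genes higher, 2 lower), endothelial markers to 5.16 to 5.68 and 3.43 to 5.01 CPM (1 of 4 higher, 1 lower), mesothelial markers to 9.31 to 10.8 and 4.20 to 5.58 CPM (3 of 6 lower), and epithelial markers to under 1 CPM in every library, with Nkx2-1 at 0. The part of these cells in the changes below was not tested.

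Of the 10 genes, 6 were lower and 3 higher in senescent libraries in edgeR's quasi-likelihood test at a Benjamini-Hochberg adjusted p under 0.05, and Dnmt3a did not pass. One of the 3 higher genes, Tdg, met the filter on low counts only in senescent libraries, so its call says nothing of its own; of the other 9 genes, 6 were lower and 2 higher. Most genes changed in this comparison: 74.5% of the 14065 tested genes passed, 37.8% as lower and 36.7% as higher. The senescent and quiescent libraries did not overlap for 9 of the 10 genes, among them Tdg, whose separation followed from the filter. Of all tested genes 78.3% did not overlap (38.4% higher and 39.9% lower in senescent libraries). The median log2 fold change of the 10 genes, Tdg included, was -0.34, against -0.02 for all tested genes. All 4 genes grouped here under maintenance were lower, among them Uhrf2, which does not replace Uhrf1 in that role. Of the 3 Tet genes 2 were higher and 1 lower. No difference between roles was tested. The changes were moderate in size: tested against a 1.5-fold change with glmTreat, 0 of the 9 genes apart from Tdg passed, where 32.7% of all tested genes did (17.5% lower and 15.2% higher). Among all tested genes 42.9% had a larger absolute log2 fold change than Dnmt1, 37.4% a larger one than Tet2 and 94.0% a larger one than Dnmt3a. In bulk RNA, fewer cells that express a gene and less RNA of it per cell cannot be told apart.

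**Figure D1:**
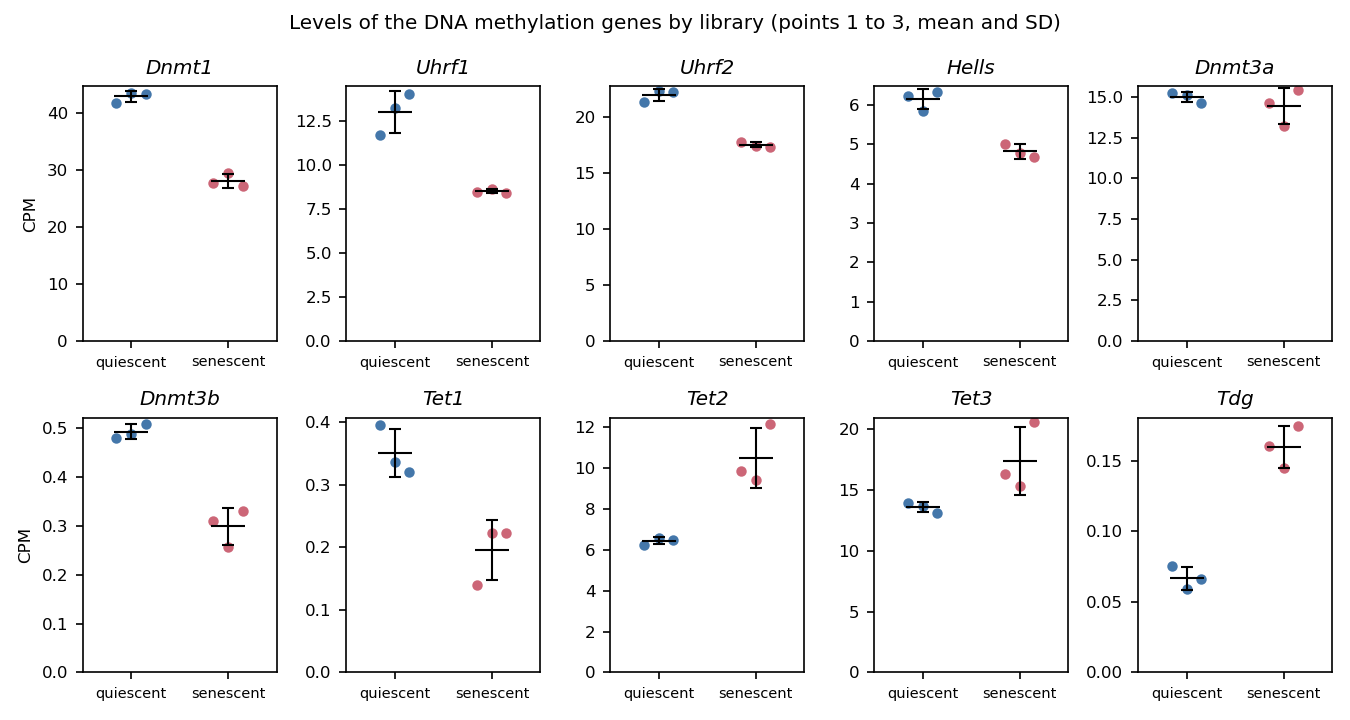
Level in CPM of each of the 10 genes in the 3 quiescent (blue) and 3 senescent (red) libraries; points are replicates 1 to 3 from left to right, the bar is the mean and the whisker the SD. The groups are apart for every gene except Dnmt3a, and senescent replicate 3 is the highest library for Tet2 and Tet3.

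The maintenance genes are shown with the RefSeq promoters (250 bases before to 50 after an annotated start, GRCm38.p6, written 5′ to 3′ on the gene's strand) of the 3 that act at the replication fork or in its wake, beside that of Tet2, which moved the other way. Capitals mark a match to an E2F site, searched as TTTCCCGC and TTTGGCGC on both strands; E2F factors drive S phase genes. Which of several annotated starts these cells used cannot be read from gene counts, and the start with the most CpG pairs is shown where there are several.
Dnmt1, chr9:20952574-20952873, minus strand: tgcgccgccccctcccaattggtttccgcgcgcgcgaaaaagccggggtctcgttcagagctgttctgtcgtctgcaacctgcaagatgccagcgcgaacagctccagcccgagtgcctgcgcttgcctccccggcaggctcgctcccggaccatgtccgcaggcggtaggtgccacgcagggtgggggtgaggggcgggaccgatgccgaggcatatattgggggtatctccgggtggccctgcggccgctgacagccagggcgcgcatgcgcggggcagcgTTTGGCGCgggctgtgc
Uhrf1, chr17:56304063-56304362, plus strand: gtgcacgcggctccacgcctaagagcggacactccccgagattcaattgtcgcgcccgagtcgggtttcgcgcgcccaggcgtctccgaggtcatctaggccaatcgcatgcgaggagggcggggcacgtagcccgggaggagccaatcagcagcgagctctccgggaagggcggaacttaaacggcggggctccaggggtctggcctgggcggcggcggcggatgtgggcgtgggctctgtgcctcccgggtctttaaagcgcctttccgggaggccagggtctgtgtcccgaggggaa
Hells, chr19:38930740-38931039, plus strand: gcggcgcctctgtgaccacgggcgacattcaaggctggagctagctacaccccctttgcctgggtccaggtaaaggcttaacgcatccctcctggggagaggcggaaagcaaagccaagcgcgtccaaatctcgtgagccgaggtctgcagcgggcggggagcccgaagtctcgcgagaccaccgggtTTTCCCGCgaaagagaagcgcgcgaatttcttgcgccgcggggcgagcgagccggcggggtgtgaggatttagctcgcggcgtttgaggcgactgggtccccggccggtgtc
Tet2, chr3:133544341-133544640, minus strand: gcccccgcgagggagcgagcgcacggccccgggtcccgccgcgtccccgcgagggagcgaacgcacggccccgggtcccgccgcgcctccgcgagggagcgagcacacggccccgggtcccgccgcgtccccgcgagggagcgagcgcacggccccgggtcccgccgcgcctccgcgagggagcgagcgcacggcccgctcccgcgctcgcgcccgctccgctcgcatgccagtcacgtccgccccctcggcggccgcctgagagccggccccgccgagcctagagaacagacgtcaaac
Hells held TTTCCCGC on the plus strand, starting 62 bases before the start (position -62), and Dnmt1 held TTTGGCGC from position 34 after this start. Of 32851 promoters in the table, 1.07% held the first form and 0.514% the second. Neither form stood in the windows shown for Uhrf1 and Tet2, or in any other window of Dnmt1 and Uhrf1. The windows of Uhrf2, Dnmt3a, Dnmt3b, Tet1, Tet3 and Tdg held neither form. For all these genes, that says only that the searched letters are not there. Other forms of the E2F site were not searched. A further form, TTTCGCGC, stands uncapitalised in the window shown for Uhrf1, and its reverse complement GCGCGAAA in that of Dnmt1. The windows of Dnmt1, Uhrf1, Hells and Tet2 held 33, 33, 34 and 57 CpG pairs, against a median of 7 over all promoters, and 99.8% of promoters had fewer than that of Tet2. A second promoter of each of Dnmt1 and Uhrf1 held 12 CpG pairs, and the remaining one of Dnmt1 held 2. Other motifs were searched too. The CHR letters TTTGAA stood, on the minus strand, in that last promoter of Dnmt1 and in that of Dnmt3b. The E-box letters CACGTG stood in 1 promoter of Dnmt3a and in that of Tdg. Of all promoters 17.9% held TTTGAA and 7.15% held CACGTG.

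Dnmt1, the maintenance methyltransferase (chromosome 9, 20907209 to 20959888, minus strand, 39 merged exons, GENCODE M21 on GRCm38), was the most abundant of the 10 genes. Its level was 41.8, 43.5 and 43.3 CPM in quiescent libraries and 27.7, 29.5 and 27.1 CPM in senescent ones. The highest senescent library lay well below the lowest quiescent one. Senescent cells had 0.655 of the quiescent level, a log2 fold change of -0.61 (standard error 0.05, adjusted p = 4.32e-07 in edgeR).

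Uhrf1, which reads hemimethylated CpG (chromosome 17, 56303321 to 56323486, plus strand), stood at 11.7, 13.3 and 14.1 CPM in quiescent and at 8.46, 8.65 and 8.44 CPM in senescent libraries. The senescent libraries were nearly level with each other, while quiescent replicate 1 was the lowest of its group. Its log2 fold change of -0.61 (standard error 0.07, adjusted p = 8.19e-06 in edgeR) was close to that of Dnmt1. In the longest coding transcript of Uhrf1, 7.05% of the 100-base windows also occurred in transcripts of Gm5648, so part of its count is uncertain.

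Uhrf2, a paralogue that binds hydroxymethylated DNA and does not replace Uhrf1 in maintenance (chromosome 19, 30030513 to 30093722), fell less. It had 21.3, 22.3 and 22.2 CPM in quiescent and 17.8, 17.4 and 17.3 CPM in senescent libraries. Every senescent library was below every quiescent one, with a log2 fold change of -0.33 (standard error 0.05, adjusted p = 5.21e-05 in edgeR).

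Hells encodes a chromatin remodeller of the SNF2 family that opens nucleosomes for methylation of repeats (chromosome 19, 38930915 to 38971051). It had 6.24, 5.85 and 6.33 CPM in quiescent and 5.02, 4.77 and 4.66 CPM in senescent libraries, again without overlap. The log2 fold change was -0.35 (standard error 0.07, adjusted p = 5.39e-04 in edgeR), or 0.785 of the quiescent level.

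The new-methylation genes differed from each other. Dnmt3a (chromosome 12, 3806007 to 3914443) had 15.3, 15.1 and 14.6 CPM in quiescent and 14.6, 13.2 and 15.5 CPM in senescent libraries, so the groups overlapped, and senescent replicate 3 was the highest of the 6. Its log2 fold change was -0.05 (standard error 0.06, adjusted p = 0.439 in edgeR), and the 95% interval of the fold ran from 0.878 to 1.06. The direction is not fixed: without senescent replicate 2 the log2 fold change was 0.0056, and without senescent replicate 3 it was -0.099 (adjusted p = 0.0782 in edgeR). Scaling by library totals made Dnmt3a lower (log2 fold change -0.35, adjusted p = 0.00229 in edgeR), as did upper quartile scaling (-0.15, adjusted p = 0.0445 in edgeR). Those scalings also moved the median of all tested genes, to -0.32 and -0.12.

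Dnmt3b (chromosome 2, 153649450 to 153687730) was far less abundant, with 51, 58 and 54 counts in quiescent and 31, 23 and 34 in senescent libraries, or 0.480, 0.489 and 0.510 CPM against 0.311, 0.257 and 0.330 CPM. All senescent values were below all quiescent ones. The log2 fold change was -0.71 (standard error 0.18, adjusted p = 0.00347 in edgeR), and at this depth its 95% interval was wide, from -1.10 to -0.32. In its longest coding transcript 5.71% of the 100-base windows also occurred in Dnmt3c, a rodent duplicate that acts in the male germline.

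The Tet genes split. Tet1 (chromosome 10, 62804570 to 62908996) had 42, 40 and 34 counts in quiescent and 14, 20 and 23 in senescent libraries. It was the lowest of the Tet genes in every library, and its groups did not overlap. The log2 fold change was -0.84 (standard error 0.24, adjusted p = 0.00694 in edgeR), with a 95% interval from -1.36 to -0.32.

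Tet2, which lacks the CXXC DNA-binding domain of its relatives (chromosome 3, 133463679 to 133545139), rose. Its level was 6.25, 6.59 and 6.48 CPM in quiescent and 9.84, 9.43 and 12.2 CPM in senescent libraries, with senescent replicate 3 the highest. The rise was 1.63-fold, or 0.70 on the log2 scale (standard error 0.09, adjusted p = 2.88e-05 in edgeR). Without senescent replicate 3 it was 0.59 (adjusted p = 5.69e-10 in edgeR).

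Tet3 (chromosome 6, 83362373 to 83459084) was the most abundant Tet gene, with 13.9, 13.7 and 13.1 CPM in quiescent and 16.3, 15.3 and 20.6 CPM in senescent libraries. The groups did not overlap, and senescent replicate 3 stood above the other senescent libraries. The log2 fold change was 0.36 (standard error 0.10, adjusted p = 0.00969 in edgeR). Without senescent replicate 3 it was 0.22 (adjusted p = 2.02e-04 in edgeR), and scaling by library totals ended the call (0.06, adjusted p = 0.667 in edgeR). The sum of the macrophage and leukocyte markers was also highest in that library, at 14.2 CPM, mostly from Cd14 (7.75 CPM) and Lyz2 (3.24 CPM). Cd14, Lyz2, Cd68, Itgam, Marco and Tyrobp were each highest there. Csf1r, Adgre1, Ptprc and Cd79a were not, and Cd3e had 0 counts throughout. The part of these markers in the difference was not tested.

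Tdg, the glycosylase that removes formyl- and carboxylcytosine and mispaired thymine (chromosome 10, 82629828 to 82650799), was counted 8, 7 and 7 times in quiescent and 16, 13 and 18 times in senescent libraries. It reached the filter on low counts in 0 quiescent and 3 senescent libraries, so a member that passed in this way had to differ, and its log2 fold change of 1.26 (standard error 0.30) is given as a description. Of the 100-base windows of its longest coding transcript, 46.0% also occurred in the pseudogenes Tdg-ps, Gm9855 or Gm5597. In addition 6.83% of its exon bases lay under exons of Glt8d2 on the opposite strand. How the counting used strand, and reads with several positions, does not stand in the sources used here, so the level of Tdg is uncertain.

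**Figure D2:**
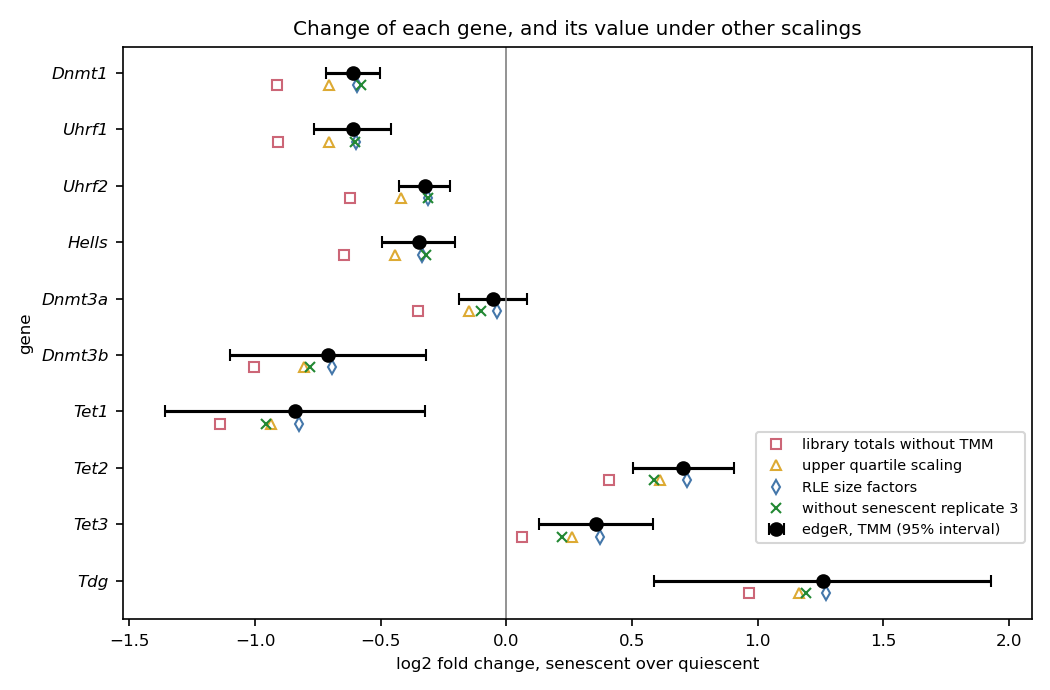
Log2 fold change of each gene, senescent over quiescent, with its 95% interval (black), and its value with library totals, upper quartile or RLE scaling and without senescent replicate 3 (coloured symbols). Library totals move every gene to the left, which brings Tet3 to 0.06 and Dnmt3a to -0.35.

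Ratios of counts within a library do not depend on how libraries are scaled. The exact permutation test (two-sided) was applied to 4 of them; 3 libraries against 3 cannot give a p below 0.1. The log2 ratio of Tet1 to Tet2 was -3.98, -4.29 and -4.34 in quiescent and -6.13, -5.40 and -5.77 in senescent libraries, a difference of -1.56. The log2 ratio of Dnmt3a to Dnmt3b was 4.99, 4.95 and 4.84 in quiescent and 5.56, 5.69 and 5.55 in senescent libraries, a difference of 0.67. In both pairs the paralogues thus moved apart by more than the spread between replicates.

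The log2 ratio of Uhrf1 to Uhrf2 went from -0.86, -0.75 and -0.66 to -1.07, -1.01 and -1.03, a difference of -0.28. The log2 ratio of Dnmt1 to the summed counts of Mcm2 to Mcm7, the subunits of the replicative helicase, went from -0.92, -0.90 and -1.02 to -1.25, -1.09 and -1.21, a difference of -0.24. Dnmt1 was thus lower in senescent libraries relative to these helicase genes. Over all 29 tested genes of proliferation and S phase, log2 fold changes ran from -2.33 to 0.15. Their median was -0.55, against -0.61 for Dnmt1, so the direction of such a ratio depends on the genes chosen. In all 4 ratios the groups did not overlap and the permutation test gave p = 0.1, and p = 0.1 adjusted over the 4, which does not pass 0.05.

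**Figure D3:**
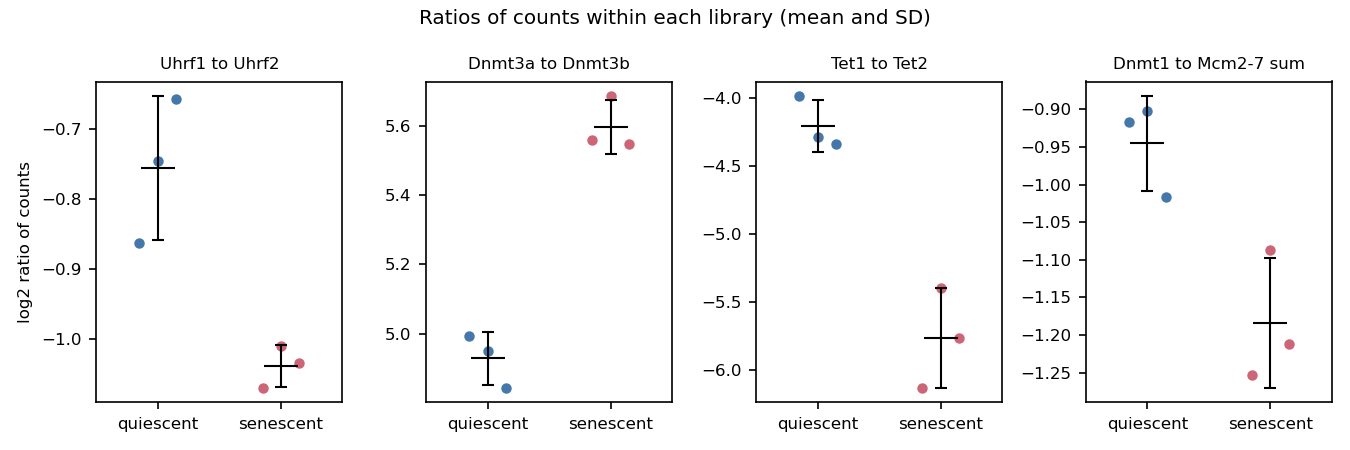
Log2 ratio of counts within each library for 3 pairs of paralogues and for Dnmt1 over the summed Mcm2 to Mcm7 counts; points are replicates, bars the mean and SD. The vertical axes differ in range, and the groups are apart in each panel, most widely for Tet1 to Tet2 (difference -1.56).

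Compared per length (RPKM on the union of a gene's exons), Dnmt1 made up most of the DNA methyltransferase level, 85.3% ± 0.444 (SD, n = 3) in quiescent and 80.4% ± 1.95 (SD, n = 3) in senescent libraries. Dnmt3a went from 13.3% ± 0.463 to 18.4% ± 1.77 of the sum, and Dnmt3b from 1.42% ± 0.036 to 1.24% ± 0.18. Among the Tet genes, Tet3 held 66.8% ± 0.939 in quiescent and 62.1% ± 0.568 in senescent libraries and Tet2 31.3% ± 1.12 and 37.1% ± 0.436. Tet1 held 1.86% ± 0.186 and 0.762% ± 0.198. These orders held on the length of the longest coding transcript too.

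The order of the Uhrf genes did depend on the length used. On the exon union, Uhrf1 held 54.4% ± 1.76 of their sum in quiescent and 49.6% ± 0.513 in senescent libraries (SD, n = 3), whereas on the longest coding transcript it held 36.9% ± 1.65 and 32.4% ± 0.45. The levels themselves, on the exon union, were 5.81 ± 0.129 RPKM for Dnmt1, 3.06 ± 0.283 for Uhrf1, 2.55 ± 0.0641 for Uhrf2, 0.902 ± 0.0202 for Dnmt3a, 0.852 ± 0.0352 for Hells and 0.813 ± 0.0248 for Tet3 in quiescent libraries (SD, n = 3). Over libraries the ranges of Dnmt1, Uhrf1, Uhrf2 and Dnmt3a were apart from each other, that of Hells lay directly under that of Dnmt3a, and that of Tet3 overlapped that of Hells. Tet2 followed at 0.382 RPKM, and Dnmt3b, Tet1 and Tdg were below 0.1 RPKM. In senescent libraries the means of Uhrf1 and Uhrf2 were 2.00 and 2.04 RPKM with overlapping ranges, and Tet3, at 1.04 ± 0.168, had a higher mean than Dnmt3a, at 0.868 ± 0.0672, also with overlapping ranges (SD, n = 3). The sum of the Tet genes was 0.184, 0.178 and 0.174 of the sum of the Dnmt genes in quiescent and 0.334, 0.307 and 0.422 of it in senescent libraries. This measure was chosen after the values of the genes were seen.

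**Figure D4:**
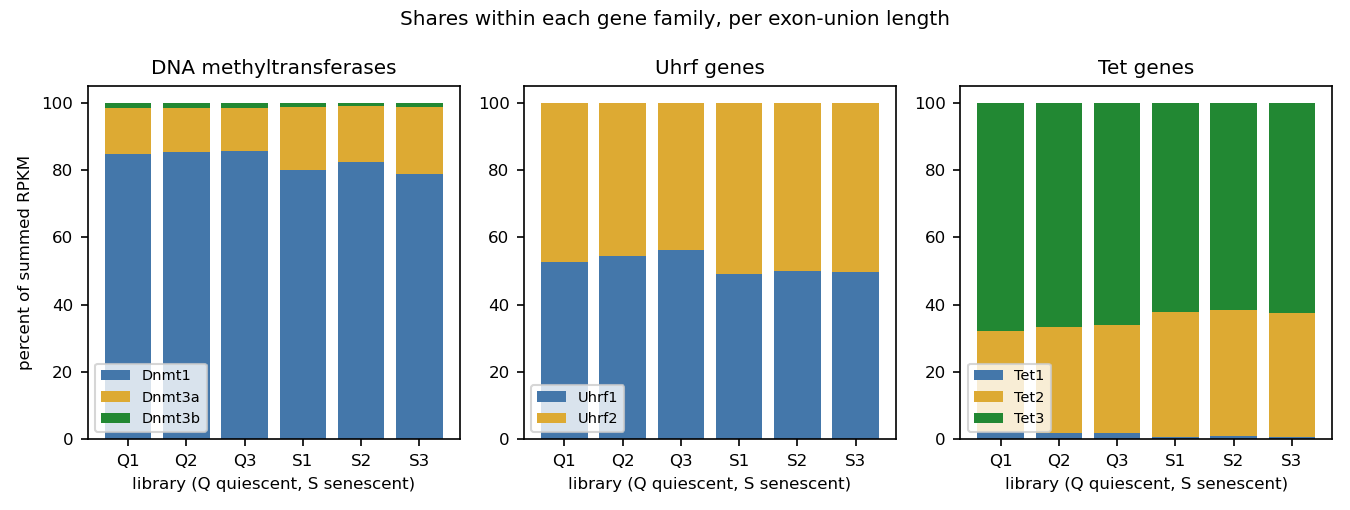
Share of each gene in the summed per-length level (RPKM on exon unions) of its family in each library, Q for quiescent and S for senescent replicates. The Dnmt1 share is 78.7% to 82.5% in senescent against 84.8% to 85.7% in quiescent libraries, and Tet1 is at most 2.08% of the Tet level.

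Genes of proliferation and S phase moved with the maintenance genes. Of 29 tested, 24 were lower and 0 higher, with a median log2 fold change of -0.55, and their summed level went from 320 to 338 CPM in quiescent libraries to 169 to 184 CPM in senescent ones. The 6 helicase genes Mcm2 to Mcm7 were all lower, with a median of -0.36, between the values of Hells and of Dnmt1. Pcna, the sliding clamp that also holds Dnmt1 at the replication fork, had a log2 fold change of 0.04 (adjusted p = 0.57 in edgeR), and it was lower with library totals (-0.26, adjusted p = 0.00752 in edgeR). Cdca7, the partner that brings Hells to nucleosomes, had a value of -0.03 (adjusted p = 0.801 in edgeR), and of -0.33 with library totals (adjusted p = 0.0375 in edgeR). Pcna and Cdca7 were singled out after their values were seen. The part of dividing cells, against which BI-2536 was directed, in the lower maintenance genes was not tested.

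Beyond the writers and erasers, 78 other genes of the pathway in 8 lists could be tested, and 27 were higher and 31 lower, with a median log2 fold change of -0.06. These shares are near those of all tested genes. With library totals 16 were higher and 47 lower.

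Among 10 maintenance partners 3 were higher and 5 lower. Smarca5, a remodelling ATPase, rose by 0.51 on the log2 scale, and Usp7, the ubiquitin protease that stabilises Dnmt1 and Uhrf1, by 0.32 (0.03 with library totals, adjusted p = 0.785 in edgeR). Lig1, the ligase that joins Okazaki fragments and binds Uhrf1 when methylated, fell by 1.38, and Kat5, an acetyltransferase that acts on Dnmt1, fell by 0.38. Of 9 partners of new methylation, 2 were higher and 5 lower. Dnmt3l, the inactive cofactor of Dnmt3a and Dnmt3b, rose from 83, 111 and 96 counts to 159, 155 and 177, a log2 fold change of 0.94 (standard error 0.11, adjusted p = 1.44e-05 in edgeR). It thus moved opposite to Dnmt3b. Kdm1a, a histone demethylase, rose by 0.52, while its relative Kdm1b fell by 0.32 and Ehmt2, the histone methyltransferase G9a, fell by 0.87.

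Of 9 genes tied to the Tet reaction, 3 were higher and 4 lower. The enzymes that make 2-oxoglutarate in the cytosol and with NADP in mitochondria, Idh1 and Idh2, fell by 1.82 and 1.47 on the log2 scale. Idh3a, of the NAD-linked enzyme of the citric acid cycle, rose by 0.85. Of 15 base excision repair and Gadd45 genes that act after Tdg or beside it, 6 were higher and 6 lower. Ung, the uracil glycosylase, rose by 1.58 and Gadd45b by 1.32, and the glycosylase Neil3 fell by 2.19 and Parp1 by 1.14. Apobec1, a cytosine deaminase, rose by 1.71 and Apobec3, which restricts retroviruses, fell by 1.53.

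Of 9 genes listed as readers of methylated CpG, not all of which are known to bind it, 1 was higher and 3 lower. Mbd1 fell from 54.6 to 28.7 CPM in the mean, a log2 fold change of -0.93 (standard error 0.05), and Mbd6 fell by 0.57, while Zbtb38 rose by 0.30, a rise that was gone with library totals (-0.0060, adjusted p = 0.95 in edgeR). Of 16 genes of the methyl donor cycle, 7 were higher and 5 lower. The methylthioadenosine phosphorylase Mtap rose by 1.00 and Ahcyl2 by 1.09. Mat2b, the regulatory subunit of the enzyme that makes the methyl donor S-adenosylmethionine, fell by 0.63, while its catalytic subunit Mat2a, named after its value was seen, rose by 0.58. Of 7 binders of unmethylated CpG, 3 were higher and 2 lower. Bend3 rose by 0.60 and Kdm2a by 0.23 (-0.07 with library totals, adjusted p = 0.45 in edgeR), Cxxc1 fell by 0.60 and Kmt2b by 0.25. The call of Kmt2b was lost without quiescent replicate 1, senescent replicate 1 or senescent replicate 2 (adjusted p = 0.0662, 0.0589 and 0.0514 in edgeR).

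**Figure D5:**
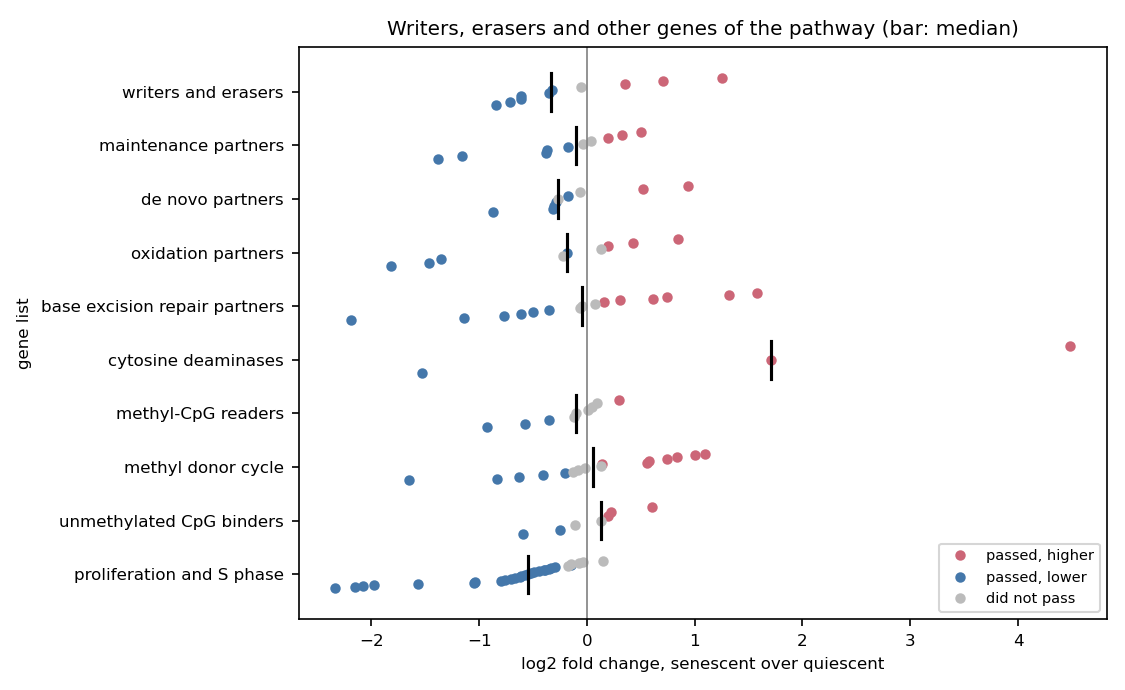
Log2 fold change, senescent over quiescent, of every tested gene in the writers and erasers, in the 8 lists of other pathway genes and in the proliferation list; red and blue points passed as higher and lower, grey ones did not, and the bar is the list's median. Proliferation genes lie to the left (24 of 29 lower), while the other pathway lists spread to both sides.

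The genes with the most similar pattern over the 6 libraries were taken by the root mean square distance of centred log2 CPM, among the 7085 genes whose log2 CPM averaged 2 or more. Nearest to Dnmt1 were Dnajc3, Arhgef18 and Msl3 (distances 0.0232 to 0.0272), and nearest to Uhrf1 were Hirip3, Fam111a and Ccbe1 (0.0321 to 0.0488). Nearest to Tet2 were Gar1, Pnpla2 and Thoc2l (0.0259 to 0.0372), and nearest to Tet3 were Rara, Slc19a2 and Zfyve26 (0.0329 to 0.038). Of the 7 members in that pool (Dnmt3b, Tet1 and Tdg were too low to enter it), 0 were among the 3 nearest of another member.

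For repeats whose copies are known targets of DNA methylation, the number higher and lower depended on the scaling. Of 16 repeat names chosen for this, 15 could be tested, and 5 were higher and 5 lower when scaled as the genes were. Over 1274 repeat names 69.4% passed, 9.5% as higher and 59.9% as lower. IAPEz-int, the internal part of an endogenous retrovirus that stays methylated in most tissues, had 28.7, 28.3 and 27.4 CPM in quiescent and 33.5, 31.1 and 37.1 CPM in senescent libraries. Its groups did not overlap, and its log2 fold change was 0.27 (standard error 0.09, adjusted p = 0.0206 in edgeR). The call was lost when quiescent replicate 1, 2 or 3, or senescent replicate 1, was left out (adjusted p from 0.0554 to 0.0761 in edgeR). With this scaling the other IAP names did not rise. IAPEY3-int (-0.58) and IAPLTR2_Mm (-0.45) passed as lower, and IAPLTR1_Mm (-0.10) and IAPLTR1a_Mm (-0.07) did not pass. MMVL30-int, of the VL30 retroelements, rose by 2.66 on the log2 scale, and ETnERV-int fell by 0.89. The LINE-1 names went both ways: L1Md_A fell by 0.77, and L1Md_T rose by 0.41 with overlapping groups. L1Md_F2 and L1Md_Gf did not pass. The call of L1Md_T was lost without quiescent replicate 2, senescent replicate 2 or senescent replicate 3. Scaled by the repeat table itself, without its ribosomal RNA names, 9 of the 15 were higher and 2 lower. Over all repeat names 53.7% then passed, 27.8% as higher and 26.0% as lower. Under that scaling IAPEz-int (log2 fold change 0.76), IAPLTR1_Mm (0.39) and IAPLTR1a_Mm (0.42) passed as higher. IAPLTR2_Mm (0.03) and IAPEY3-int (-0.10) did not pass. Reads of repeats can match many copies, and DNA methylation itself was not measured in these libraries.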

How the data were processed

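RNA-seq of 6 libraries was used, grouped by their labels into 3 quiescent and 3 senescent. The deposited tables hold raw whole-number counts, 1 table by gene symbol and 1 by RepeatMasker name. The submitters' processing notes list mm10, edgeR 3.32.1 and limma 3.46.0 with no role. The sources used here give no aligner, counting tool or use of strand. Positions and lengths came from GENCODE M21 and promoters from RefSeq, both on GRCm38, the assembly mm10 names; all 10 symbols matched both.

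All gene rows were fitted with edgeR 4.0.16 in R 4.3.3: filterByExpr with a minimum count of 10, TMM, and a robust quasi-likelihood F test, with p-values adjusted by Benjamini-Hochberg across every tested gene (threshold 0.05). Standard errors are the log2 fold change over the square root of F. Repeats used the gene table's effective library sizes. The fit was tested on counts simulated at 1 dispersion shared by all genes, which leaves out differences in spread between genes. It recovered 40% of 1.25-fold, 94% of 1.5-fold and 100% of 2-fold changes, with 10 false calls among 177. Many changes near 1.25-fold were thus missed. Depth covers counting error only.

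Genes and lists were chosen with earlier results of these data known. From each other list, up to 2 risen and 2 fallen genes with the largest change, at a mean log2 CPM of at least 0, are named; others were named after their values were seen, and a few genes that the rule picks are not reported here. Similarity used genes at a mean log2 CPM of at least 2, with a prior count of 2. The alternatives were DESeq2 1.42.0, limma-voom (limma 3.58.1), 4 scalings, other filters and thresholds, a replicate block, and fits with 1 library left out; per-length shares on the longest coding transcript were added after the data were seen.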

Additional observations from a re-analysis of the deposited data

How the results depend on the processing

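Members' directions held under 17 alternatives, except for Dnmt3a. Whichever library was left out, 3 were higher, with the filter-bound Tdg among them, and 6 lower. Against a 1.5-fold change 1 member (Tdg) was higher and 0 lower, and among other pathway genes 10 were higher and 13 lower. With library totals 2 members, Tdg among them, were higher and 7 lower, and pathway genes gave 16 higher and 47 lower. Leaving out each library gave 23 to 27 higher and 27 to 33 lower pathway genes. All genes with library totals gave 2952 higher and 7435 lower, and 4474 and 6005 with upper quartile scaling, against 5158 and 5316.

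The differences in log2 ratio ranged, without 1 library, from -0.34 to -0.23 for Uhrf1 to Uhrf2, 0.62 to 0.70 for Dnmt3a to Dnmt3b, -1.75 to -1.38 for Tet1 to Tet2 and -0.29 to -0.20 for Dnmt1 to Mcm2 to Mcm7. Values that turned sign were those of Dnmt3a (0.0056 without senescent replicate 2), Pcna (-0.26 with library totals, -0.058 with upper quartile scaling and -0.0054 without quiescent replicate 2), Cdca7 (0.047 without quiescent replicate 2, 0.0031 without senescent replicate 2), Zbtb38 (-0.0060) and Kdm2a (-0.069), both with library totals. Without 1 library, values ran from -0.099 to 0.0056 for Dnmt3a, -0.0054 to 0.064 for Pcna and -0.091 to 0.047 for Cdca7. Scaled by the repeat table, repeat names gave 9 higher and 2 lower, and IAPLTR1_Mm (0.39), IAPLTR1a_Mm (0.42), IAPLTR2_Mm (0.034), L1Md_Gf (0.074) and RLTR4_MM-int (0.46) turned sign; without 1 library 3 to 4 were higher and 4 to 5 lower. The cause was not tested.

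Whether the replicate number pairs samples is not in the labels. Same-numbered libraries deviated together with correlations of 0.051, -0.01 and 0.058. Of the quiescent libraries, 2 correlated best with the senescent library of their own number. So few libraries cannot show or exclude a pairing. With the replicate block 3 members, Tdg among them, were higher and 6 lower, and the ratio differences were the same, with p = 0.25 by exact sign flips. Under minimum count 50, Tet1 and Tdg were not tested. Counts of Tdg, Tet1 and Dnmt3b limit their precision.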

Other observations

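Of 28 genes listed as germline genes that DNA methylation keeps silent in body cells, 21 had fewer than 10 counts in every library. Of these, 7 had 0 in all 6, among them Tex101 and Asz1. The other 7 could be tested with edgeR's quasi-likelihood test. Taf9b was not silent in either group, so its values are no readout of silencing. It went from 130, 122 and 103 counts in quiescent to 56, 43 and 52 in senescent libraries (log2 fold change -1.05, adjusted p = 4.71e-05 in edgeR). Sycp3, of the meiotic chromosome axis, went from 41, 64 and 54 to 23, 17 and 23 counts (-1.15, adjusted p = 4.25e-04 in edgeR). Both calls held in every alternative in which the genes were tested. Brdt had 48, 44 and 51 against 24, 31 and 27 counts (-0.62, adjusted p = 0.0183); its call was lost with DESeq2 (adjusted p = 0.0898), against a 1.5-fold change, at the stricter threshold and without quiescent replicate 1, quiescent replicate 3 or senescent replicate 1 (adjusted p = 0.0542, 0.0663 and 0.0757). Piwil4, of the piRNA pathway, had 20, 14 and 18 against 26, 23 and 27 counts (0.72, adjusted p = 0.0198); its call was lost with DESeq2 (adjusted p = 0.106), with library totals (0.176), against a 1.5-fold change, at the stricter threshold and without quiescent replicate 2 (0.0916). Piwil2 and Tex11 did not pass. Tdrd1 had 2, 4 and 2 counts in quiescent and 16, 12 and 20 in senescent libraries, and entered the test only through the senescent group.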
